A study of Drosophila melanogaster with 23 samples.

Results

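Larval brain cells marked by the driver Tim-Gal4 were compared with larval brain cells marked by the same driver in the presence of Pdf-Gal80, across all genes on the array. The comparison used 6 of the 23 arrays of the series, 3 per group, chosen by their titles alone, so no measured value entered the choice. Each array was a one-colour Affymetrix array of Drosophila melanogaster hybridised with RNA from 1 sample, and the whole series held 8 groups of larval or adult samples. The Tim group came from flies with Tim-Gal4 and UAS-YFP. The Gal80 group came from flies with Tim-Gal4, Pdf-Gal80 and UAS-YFP. The same labels also call the collected cells GFP positive, so the reporter is named in both ways. Larval Pdf cells came from Pdf-Gal4 and UAS-GFP, and larval Elav cells from Elav-Gal4 and UAS-GFP, with 3 arrays each. They are set beside the Tim and Gal80 groups where a gene's level in these other sorted cells is given. All flies were kept in 12 h of light and 12 h of darkness. Roughly 50 heads, taken around lights-off (Zeitgeber time 12), were dissected and treated with protease, and fluorescent cells were then collected by hand. The sources used here give neither the larval age and sex nor the number of cells per sample. RNA of 0.1 to 0.4 ng per sample went through 2 rounds of amplification before labelling.

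Gal4 is a yeast activator that switches on a reporter placed behind its binding sites, and Gal80 is its yeast inhibitor. Tim-Gal4 follows the promoter of timeless and Pdf-Gal80 that of Pdf, so cells that use both promoters should lose their fluorescence and drop out of the sort. PDF is the neuropeptide of the lateral clock neurons, which keep the daily activity rhythm of the fly. In the molecular clock CLOCK and CYCLE activate period and timeless, whose proteins return to the nucleus and repress that activation, while cryptochrome lets light reset the loop. The timeless promoter is also active outside neurons, in glia and in the prothoracic gland, the part of the larval ring gland that makes ecdysone.

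Levels are the authors' log2 values from GCRMA, on which undetected genes gather near 2 to 3, and a value of 5 was taken here as the limit of detection. A gene was called where limma's Benjamini-Hochberg adjusted p over 7670 tested genes was under 0.05 and the fold was at least 2. A fold carries "at least" where an array of the dimmer group lay under 5, and values under 5 in that group were then raised to 5. The labels call the arrays biological replicates and name no animals or cultures behind them, and p-values therefore cover only the spread among these samples, which may be partly technical. Their number limits the precision. Replicate arrays correlated across genes with r of 0.867 to 0.928 within the Tim group and 0.878 to 0.917 within the Gal80 group, against 0.739 to 0.886 between the groups. Gal80 replicate 3 was low in many neuronal genes and Tim replicate 3 in ring gland genes, and the values without them are given where they moved a call or a difference most.

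Of the 7670 genes, 1245 were called (16.2%), 948 of them higher in Tim cells (12.4%) and 297 lower (3.87%). The groups of arrays did not overlap for 2876 genes (37.5%), with the Tim arrays above for 1904 (24.8%) and below for 972 (12.7%), and 2292 genes had an unadjusted p under 0.05 (29.9%). The surplus of higher calls depended on the scaling of the arrays. The median difference of all tested genes was 0.33 on the log2 scale, and more probe sets lay above 5 on the Tim arrays (36.6% to 39.2%) than on the Gal80 arrays (34.4% to 36.5%). After each array was centred on the median of its detected genes, the median difference was -0.11 and the calls split into 574 higher and 532 lower. After quantile normalization it was 0.08, with 646 higher and 452 lower. The differences, folds and calls below are as fitted, without subtracting the median of 0.33, and are to be read beside it. Single libraries carried weight: 678 genes were called without Tim replicate 2, 686 without Tim replicate 3 and 662 without Gal80 replicate 3. A fit of these 2 groups alone, with their own spread, called 569. For 62 of 93 called genes picked by rule for naming, leaving out 1 array or another moved the fold, not the log2 difference, by over 1.5 times. That was most often Gal80 replicate 3 (31 genes) and Gal80 replicate 2 (30 genes).

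**Figure D1:**
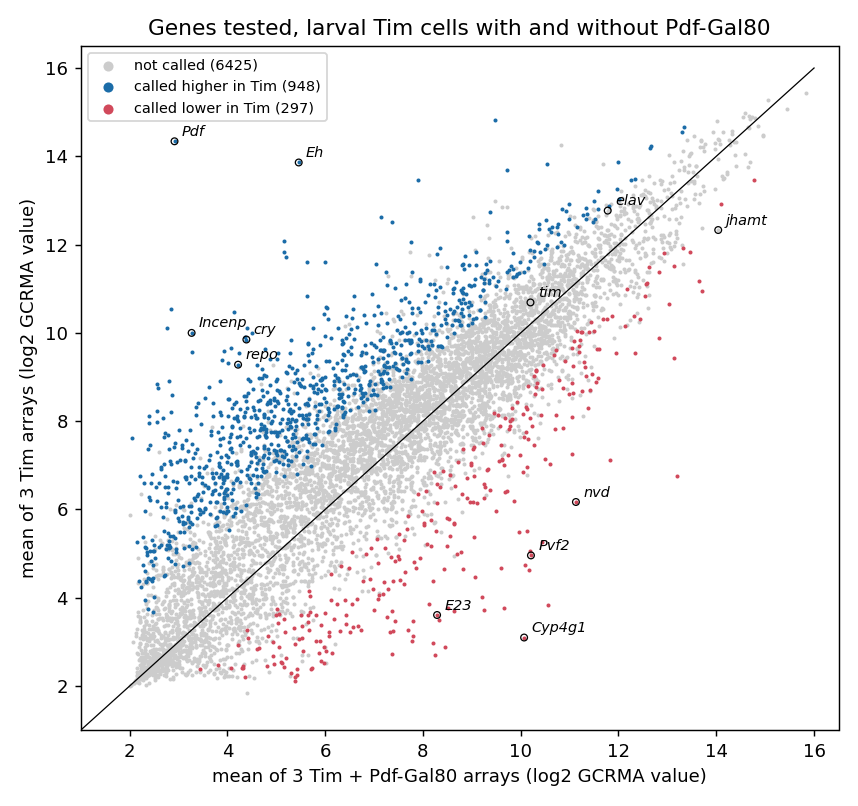
Each point is a gene tested, with the mean log2 GCRMA value of the 3 Gal80 arrays on the horizontal axis and that of the 3 Tim arrays on the vertical axis. Blue marks the 948 genes called higher in Tim cells and red the 297 called lower. Pdf and Eh lie far above the line of equal values, and Cyp4g1, Pvf2, E23 and nvd far below it.

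The gene of the peptide that defines the removed neurons was the largest difference on the arrays. Pdf read 14.54, 14.29 and 14.20 on Tim replicates 1 to 3 and 3.03, 2.97 and 2.76 on the Gal80 replicates. All Tim arrays were near the level of larval Pdf cells (14.47, 14.71 and 15.31), and all Gal80 arrays were under the limit of detection, where larval Elav cells lay too. Pdf was thus at least 649-fold higher in Tim cells (log2 difference 11.42, SE 0.50, adjusted p = 1.84e-11). In these bulk samples, fewer cells of a type and less RNA per cell cannot be told apart. The receptor for the peptide, Pdfr, lay between 2.35 and 2.44 on all 6 arrays, under the limit of detection, while its mean in larval Pdf cells was 7.27.

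Fer2 and Hr51, transcription factors of the PDF neurons, were lower in Gal80 cells. Fer2, a basic helix-loop-helix factor of clock neurons, read 5.84, 8.03 and 7.28 on the Tim arrays and 3.54, 4.95 and 3.02 on the Gal80 arrays. Every Tim array was above 5 and every Gal80 array below it, at least 4.15-fold apart (adjusted p = 0.00317). Hr51, the nuclear receptor also called unfulfilled, which clock neurons need for normal rhythms, read 7.11, 9.51 and 7.76 against 3.26, 4.11 and 2.72. That is at least 8.73-fold (adjusted p = 0.000922), again with no Gal80 array above the limit. Both were chosen as PDF neuron genes with results of this series known, so their direction is no independent evidence. In the list of 19 clock neuron factors, 4 were called higher (21.1%, against 12.4% of all genes) and 0 lower, or 2 in the fit of the 2 groups alone. Those 4 include Fer2, Hr51 and Pdf itself, so this share is no independent evidence either. Beside Fer2, Hr51 and Pdf the list's calls included qvr, a Ly6-like protein that modulates potassium channels and sleep. It averaged 7.76 in Tim and 4.89 in Gal80 cells (adjusted p = 0.00386) on the probe set used, while its other 2 probe sets lay under 3 in both groups. With the mean of its probe sets the call of qvr was lost, and its adjusted p reached 0.134 over the settings tried.

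The core clock split into genes that were lower in Gal80 cells and genes that did not pass the test. The blue-light photoreceptor gene cry read 9.56, 9.94 and 10.05 on the Tim arrays and 5.92, 4.56 and 2.70 on the Gal80 arrays. It was at least 23.3-fold higher in Tim cells (adjusted p = 0.00174), and 1 Gal80 array still exceeded 5. The repressor gene per read 7.50, 8.48 and 8.49 against 3.89, 6.91 and 3.41, at least 5.74-fold higher (adjusted p = 0.0037), also with 1 Gal80 array above the limit. The groups did not overlap in either gene, and both kept their call in each of the 6 fits that left out 1 array.

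The gene whose promoter drives the sort, tim, read 11.16, 10.95 and 9.95 in Tim cells and 10.09, 10.14 and 10.36 in Gal80 cells. These ranges overlap, and the difference of 0.49 (SE 0.53) was not called (adjusted p = 0.591). Its level was higher in larval Pdf cells, where it averaged 13.70, and undetected in larval Elav cells at 2.93. The probe sets of tim disagreed. The other one averaged 7.42 in Tim and 3.97 in Gal80 cells, a difference of 3.45, and with the mean of both the gene was called higher (log2 difference 1.97, adjusted p = 0.0192, against 0.0192 to 0.97 over all settings tried). What sets the 2 probe sets apart was not tested.

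The activator genes and the second clock loop did not pass. Clk averaged 6.41 and 6.36 in the Tim and Gal80 groups, and its Gal80 arrays spread from 3.50 to 8.82 (adjusted p = 0.992). cyc, which encodes the partner of CLOCK, averaged 8.31 and 8.23. The loop genes vri, Pdp1 and cwo, which encode a repressor, an activator and a further repressor, had log2 differences of 0.76, -0.88 and -0.55. With cry and per, 2 of the 8 core clock genes were called higher (25%, against 12.4% of all genes) and 0 lower. The fit of the 2 groups alone called 1 higher and 0 lower. The median of the list, 0.28, lay near the 0.33 of all genes, and fell to -0.16 after centring. Among 9 genes of clock protein phosphorylation and turnover limma called 0 in either direction, 0 had an unadjusted p under 0.05, and the median was -0.27. With array weights 1 was called.

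**Figure D2:**
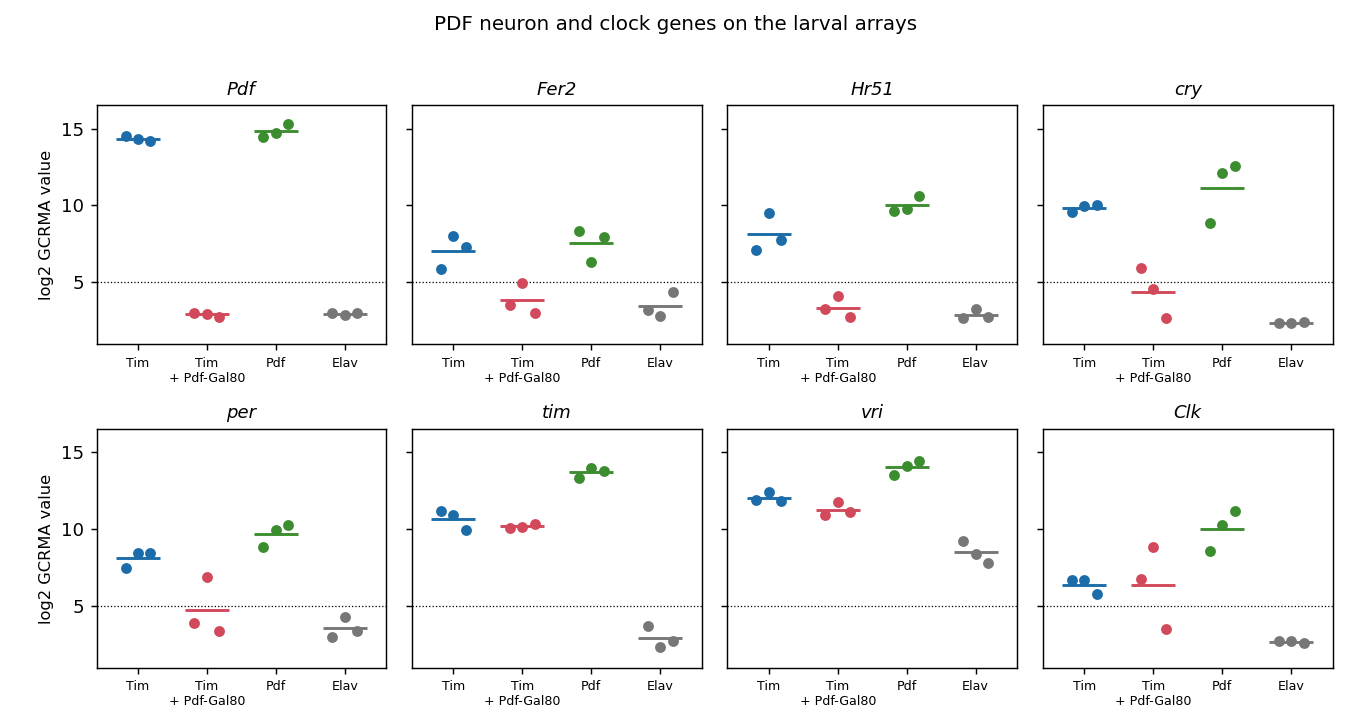
Log2 GCRMA values of 8 genes on the 12 larval arrays, in panels by gene, with points for arrays, bars for group means and a dotted line at the limit of 5. Pdf, Fer2, Hr51, cry and per were called between the Tim and Gal80 groups, and tim, vri and Clk were not. The Gal80 arrays for Pdf, Fer2 and Hr51 all lie under the dotted line.

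Several neuropeptide genes other than Pdf were also called lower in Gal80 cells, and some of these were not detected in larval Pdf cells, while most of the list was not called. Of 28 tested peptide genes, 10 were called higher in Tim cells (35.7%, against 12.4% of all genes) and 0 lower. The median difference was 1.66, or 0.63 with values under 5 raised to 5. The count was 6 without Tim replicate 1, 6 without Gal80 replicate 3 and 2 in the fit of the 2 groups alone. Pdf, the gene that defines the removed neurons, is among the called genes in each of these counts, including the 10. Eh, the eclosion hormone, read 13.35, 14.99 and 13.26 on the Tim arrays and 11.87, 2.23 and 2.26 on the Gal80 arrays. Thus Gal80 replicate 1 was nearly as high as the Tim arrays, while the other two were at background. Eh was at least 95.3-fold higher in Tim cells on the group means (log2 difference 8.41, SE 1.66, adjusted p = 0.00237), and the log2 difference was 11.62 without Gal80 replicate 1 and 6.81 without Gal80 replicate 3. Its means in larval Pdf and Elav cells were 2.26 and 2.25.

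Mip, the myoinhibiting peptide, read 6.92, 6.44 and 10.01 against 3.26, 2.72 and 3.08, at least 6.94-fold higher in Tim cells (adjusted p = 0.000978). Burs, a subunit of the cuticle-hardening hormone bursicon, read 4.43, 9.12 and 8.25 against 5.0, 2.41 and 2.61. Tim replicate 1 lay under Gal80 replicate 1 there, so the groups overlapped, though the gene was called (adjusted p = 0.00319). CCHa1, a gut and brain peptide that some dorsal clock neurons make, read 10.72, 11.48 and 9.20 against 9.18, 8.87 and 3.38. The gap between the lowest Tim array and the highest Gal80 array was narrow, and Gal80 replicate 3 stood far below the rest (at least 6.88-fold, adjusted p = 0.0243). Without Gal80 replicate 3 the log2 difference of CCHa1 was 1.44 in place of 3.32, and its call was lost there and without Tim replicate 1 or 2 (adjusted p of 0.00682 to 0.108 over the 6 fits without 1 array). Mip, Burs and CCHa1, like Eh, lay under 5 on every larval Pdf array.

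Dh44, the corticotropin-releasing-factor-like diuretic hormone, averaged 9.40 ± 2.06 in Tim and 5.01 ± 1.75 in Gal80 cells (SD, n = 3 each; limma adjusted p = 0.00644). Nplp1, a precursor of several brain peptides, averaged 9.75 ± 0.83 and 6.35 ± 1.89 (limma adjusted p = 0.0208, n = 3 each). The call of Nplp1 was lost without Tim replicate 1, Tim replicate 2 or Gal80 replicate 3, with a limma adjusted p of 0.0099 to 0.135 over the 6 fits without 1 array. Dh31, the calcitonin-like diuretic hormone of dorsal clock neurons, read 11.20, 13.76 and 10.53 against 9.40, 10.17 and 3.61. Its arrays did not overlap, but the difference of 4.10 (SE 1.73) did not pass (adjusted p = 0.116). AstC, allatostatin C, read 11.91, 13.22 and 11.54 against 12.00, 12.21 and 7.45, with overlap and no call (adjusted p = 0.575). The ion transport peptide ITP was above background throughout, at 8.69 to 9.05 in Tim and 9.34 to 10.42 in Gal80 cells, and was not called either (adjusted p = 0.515). sNPF and NPF, peptides of some adult clock neurons, gave means under 5 in both groups.

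**Figure D3:**
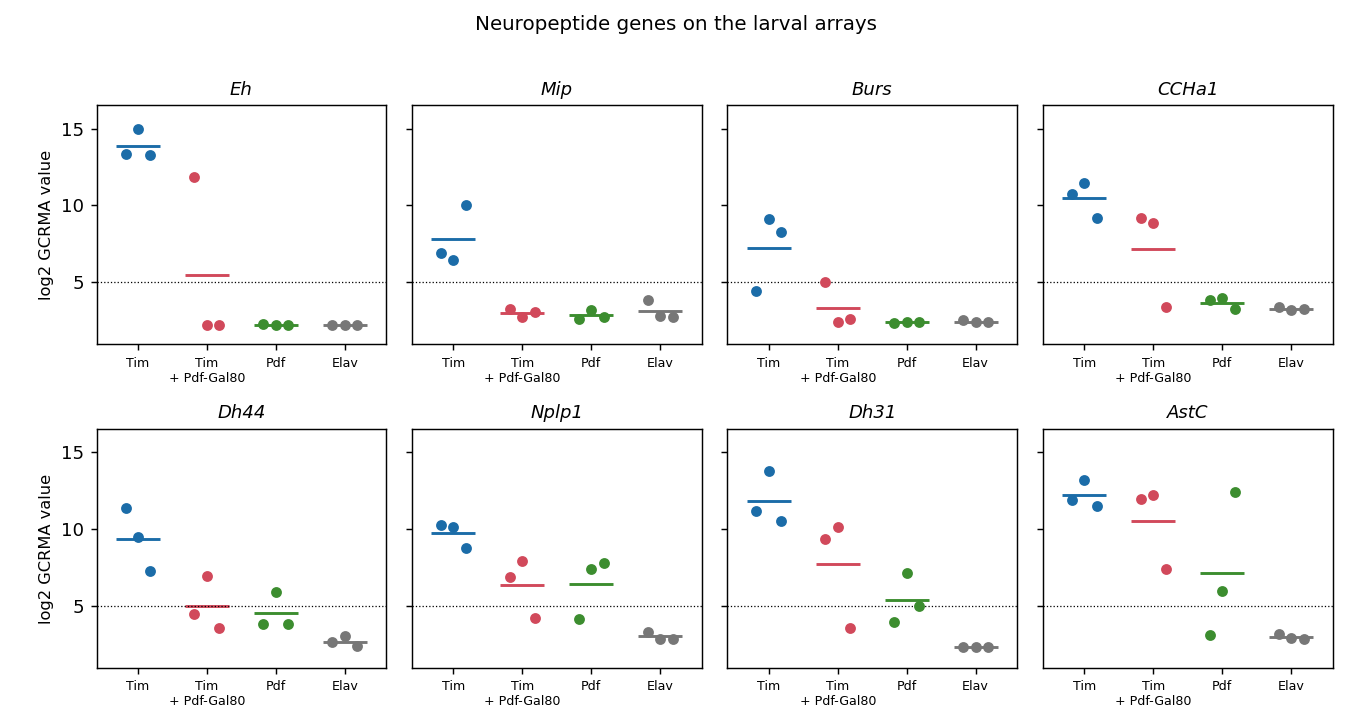
Log2 GCRMA values of 8 neuropeptide genes on the 12 larval arrays, drawn as points with bars for group means and a dotted line at 5. Eh, Mip, Burs and CCHa1 lie under the line on all Pdf and Elav arrays, and Gal80 replicate 1 is the high Gal80 point of Eh. Dh31 and AstC were not called, and their lowest Gal80 point is replicate 3.

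Peptide processing gave a mixed picture. 7B2, the helper protein of the convertase that cuts peptide precursors, lay between 13 and 14.09 on the Tim arrays (mean 13.47) and read 9.26, 11.95 and 2.52 on the Gal80 arrays. The groups did not overlap, and Gal80 replicate 3 alone was under the limit. 7B2 was at least 26.6-fold higher in Tim cells (adjusted p = 0.0106), and its mean in larval Pdf cells was 14.23. Without Gal80 replicate 3 the log2 difference of 7B2 was 2.86 in place of 5.56, still called. Of 10 genes in the list 2 were called higher (20%, against 12.4% of all genes) and 1 lower (10%, against 3.87%). The higher ones were 7B2 and amon, the convertase itself, and without Tim replicate 2 or Gal80 replicate 3 only 1 was called higher and 0 lower. The fit of the 2 groups alone called 0 higher and 1 lower. Pal2, which takes part in peptide amidation, read 11.38, 13.01 and 12.08 against 10.29, 11.45 and 6.31 and did not pass (adjusted p = 0.0585).

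General neuronal genes were measured because the removed cells are neurons. The pan-neuronal gene elav read 12.48, 12.45 and 13.38 in Tim and 11.68, 12.02 and 11.63 in Gal80 cells. All Tim arrays were above all Gal80 arrays, but the difference of 1.00 (SE 0.49) was not called (adjusted p = 0.184). Of 20 synaptic vesicle and pan-neuronal genes 4 were called higher (20%, against 12.4% of all genes) and 1 lower (5%, against 3.87%). The median difference was 1.52, and in the fit of the 2 groups alone limma called 0 in either direction. The list's median level was 10.09, 10.82 and 10.29 on the Tim arrays and 9.13, 10.45 and 6.05 on the Gal80 arrays, so Gal80 replicate 3 was low and replicate 2 level with Tim cells. Without Gal80 replicate 3, 0 genes of this list were called by limma in either direction and the median was 0.58. Without Tim replicate 2, 0 were called higher and 1 lower, without Tim replicate 3, 1 and 0, and without Gal80 replicate 2, 9 and 0. Centring and quantile normalization each left 1 higher and 2 lower.

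Several genes of membrane excitability were higher in Tim cells. Of 24 channel genes 7 were called higher (29.2%, against 12.4% of all genes) and 1 lower, with a median difference of 0.98. The higher count was 4 without Gal80 replicate 3, and the fit of the 2 groups alone called 0 higher and 1 lower. unc79, a subunit of the sodium leak channel complex, read 8.28, 9.41 and 9.23 against 4.70, 7.02 and 2.38, with no overlap, and was at least 9.84-fold higher in Tim cells (adjusted p = 0.00418). Its log2 difference was 4.27, or 3.11 without Gal80 replicate 3. The partner unc80 averaged 5.71 and 3.09 (adjusted p = 0.0133), a call lost without Tim replicate 2, Gal80 replicate 1 or Gal80 replicate 3 (0.00377 to 0.08 over the 6 fits without 1 array). In contrast na, which encodes the pore of the same channel, lay under 5 on all 6 arrays. Ca-alpha1D, the pore of the L-type calcium channel, averaged 8.27 ± 0.85 and 5.14 ± 1.70 (SD, n = 3 each; limma adjusted p = 0.00418), a log2 difference of 3.12 that was 2.34 without Gal80 replicate 3. The auxiliary calcium channel subunit gene Ca-beta went the other way, at 3.16, 3.91 and 3.33 in Tim and 7.38, 7.69 and 8.28 in Gal80 cells (at least 6.89-fold, adjusted p = 0.00542). That holds for 1 of its 3 probe sets, since the other two lay near background in both groups.

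Receptors and transmitter genes were near the shares over all genes, 12.4% called higher and 3.87% lower. Among ionotropic transmitter receptors 2 of 16 were called higher, among amine and metabotropic receptors limma called 0 of 13 (3 at an unadjusted p under 0.05, all higher), and among genes of transmitter synthesis and transport 1 of 14; 0 were called lower in these 3 lists. The respective medians were 1.05, 1.03 and 1.01. Without Gal80 replicate 3 each of the 3 lists had 0 calls in either direction by limma, and their medians were 0.13, 0.48 and 0.51; without Gal80 replicate 2 they had 5, 2 and 2 higher calls. Of 13 neuropeptide receptors 2 were called higher and 1 lower, and without Gal80 replicate 3 the calls were 0 and 0. In cAMP and calcium signalling 2 of 15 were called higher and 1 lower. dnc, the cAMP phosphodiesterase whose mutants learn poorly, read 9.93, 10.94 and 10.91 against 7.63, 8.36 and 5.30, 11.3-fold higher in Tim cells with no overlap (adjusted p = 0.00114). The log2 difference of dnc was 3.50, or 2.6 without Gal80 replicate 3. Galphaq, a G protein subunit, was 3.73-fold lower, at 7.78 to 8.05 in Tim and 9.41 to 10.13 in Gal80 cells (adjusted p = 0.00213). Another Galphaq probe set differed by -1.44, and a further one lay near background, at 2.54 in Tim and 2.73 in Gal80 cells. Of 24 axon guidance and adhesion genes 3 were called higher and 1 lower, and trn, a leucine-rich repeat adhesion protein, was 15.4-fold higher (adjusted p = 0.00276). Without Tim replicates 2 or 3, or Gal80 replicate 3, that list had 1 higher call and 0 lower, and in the fit of the 2 groups alone limma called 0 either way.

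A minority of glial genes was called. Of 21 tested, 6 were higher in Tim cells (28.6%, against 12.4% of all genes) and 1 lower, with a median of 1.18, or 0.51 with values under 5 raised to 5. The count of higher calls was 2 without Tim replicate 3, 2 without Gal80 replicate 1, 3 without Tim replicate 2, 4 without Gal80 replicate 3 and 2 in the fit of the 2 groups alone. repo, the homeodomain factor found in nearly all lateral glia, read 8.61, 9.37 and 9.87 in Tim cells and 3.91, 5.31 and 3.43 in Gal80 cells. It was at least 18.1-fold higher in Tim cells (adjusted p = 0.000223) and averaged 5.71 in larval Pdf cells, above 5 on 2 of 3 arrays. gcm, the switch gene of glial fate, read 9.11, 8.59 and 8.85 against 2.72, 2.38 and 2.57, at least 14.4-fold (adjusted p = 0.000119). Both genes kept their call in every fit that left out 1 array. alrm, an astrocyte gene, averaged 6.59 and 3.22 (adjusted p = 0.0208), and wrapper, a midline and cortex glia adhesion protein, 8.09 and 4.75 (adjusted p = 0.0111). The call of alrm was lost in 5 of the 6 fits without 1 array, all but the one without Tim replicate 1 (adjusted p of 0.00169 to 0.115). That of wrapper was lost without Tim replicate 3 or Gal80 replicate 1 (0.0037 to 0.0596).

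The 1 glial gene called the other way was Gli. Gli, the gliotactin of septate junctions, read 7.99, 6.79 and 6.66 in Tim cells and 9.07, 11.86 and 10.58 in Gal80 cells, 10.2-fold lower in Tim cells (adjusted p = 0.0017). moody, a receptor of the blood-brain barrier, read 9.64, 9.05 and 8.32 against 10.55, 11.45 and 10.76, without overlap but not called (adjusted p = 0.244). loco and nrv2, used as general glial markers, differed by -0.33 and 0.20 and were not called. The glial list had median levels of 8.61, 8.44 and 8.32 on the Tim arrays and 7.06, 6.36 and 4.75 on the Gal80 arrays, and the part of glial cells in the other differences was not tested.

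Genes of dividing cells and neural stem cells showed the highest share of calls of the 28 lists examined. Of 23 tested, 14 were called higher in Tim cells (60.9%, against 12.4% of all genes) and 0 lower, and the median difference was 2.74. Leaving out 1 array at a time gave 10 to 15 higher calls and 0 lower. Centring left 11 higher and 1 lower, and the fit of the 2 groups alone 7 and 0. Incenp, of the chromosomal passenger complex, read 8.19, 10.29 and 11.52 in Tim cells against 4.19, 2.80 and 2.81, at least 32-fold (adjusted p = 1.18e-05). The mitotic cyclin gene CycB read 7.50, 10.04 and 11.25 against 4.68, 3.64 and 3.47 (at least 24.2-fold, adjusted p = 0.00136). Klp61F, a mitotic kinesin, averaged 8.60 and 2.87 (at least 12.1-fold, adjusted p = 9.81e-06). In all 3 genes Tim replicate 1 was the lowest Tim array and replicate 3 the highest.

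Several stem cell factors were among them. dpn, a neuroblast helix-loop-helix repressor, read 3.78, 7.65 and 7.42 in Tim cells and 2.5, 2.34 and 2.37 in Gal80 cells (adjusted p = 0.00542), so Tim replicate 1 was under the limit of detection. With values under 5 raised to 5 dpn was not called. pros, the homeodomain factor that ends stem cell divisions, read 11.15, 11.11 and 12.39 against 9.49, 4.67 and 6.94 (at least 21.2-fold, adjusted p = 0.00887). mira, which carries pros during division, read 6.73, 11.13 and 12.92 against 7.73, 6.72 and 7.76 and was not called (adjusted p = 0.0952). The replication genes PCNA and Mcm2 were 6.68-fold and 7.83-fold higher (adjusted p = 0.00333 and 0.00879), the call of Mcm2 being lost without Gal80 replicate 3 (0.00952 to 0.0525 over the 6 fits). Incenp, CycB and dpn were highest in larval Elav cells, where they averaged 12.20, 13.11 and 10.75. These 3 genes were detected on most larval Pdf arrays, with means of 10.72, 9.22 and 6.71. The whole list had a median level of 11.40 in larval Elav and 8.60 in larval Pdf cells. On the Tim arrays it was 7.50, 8.86 and 9.84, and on the Gal80 arrays 7.17, 6.16 and 6.17. The source of this signal in the sorted cells was not tested.

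Genes of mitochondrial respiration were called higher in 7 of 27 cases (25.9%, against 12.4% of all genes) and lower in 0, with a median of 0.64. The count ranged from 5 to 7 over the fits that left out 1 array, and centring left 5 higher and 1 lower. The fit of the 2 groups alone called 5 higher and 0 lower. SdhB, a subunit of succinate dehydrogenase, read 11.95, 11.60 and 11.95 against 8.96, 8.93 and 9.35, 6.74-fold higher with narrow spread (adjusted p = 6.26e-05). ND-39 of complex I and RFeSP of complex III were 4.41-fold and 4.14-fold higher (adjusted p = 0.00638 and 0.00165). The other probe set of RFeSP lay near background, at 2.19 in both groups. ATPsynC, of the ATP synthase ring, was 3.67-fold higher (adjusted p = 0.00578). The other 20 respiration genes were not called. Cytosolic ribosomal protein genes were close to the median of all genes, at 0.31 with 1 of 17 called higher, and that call was lost after centring.

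**Figure D4:**
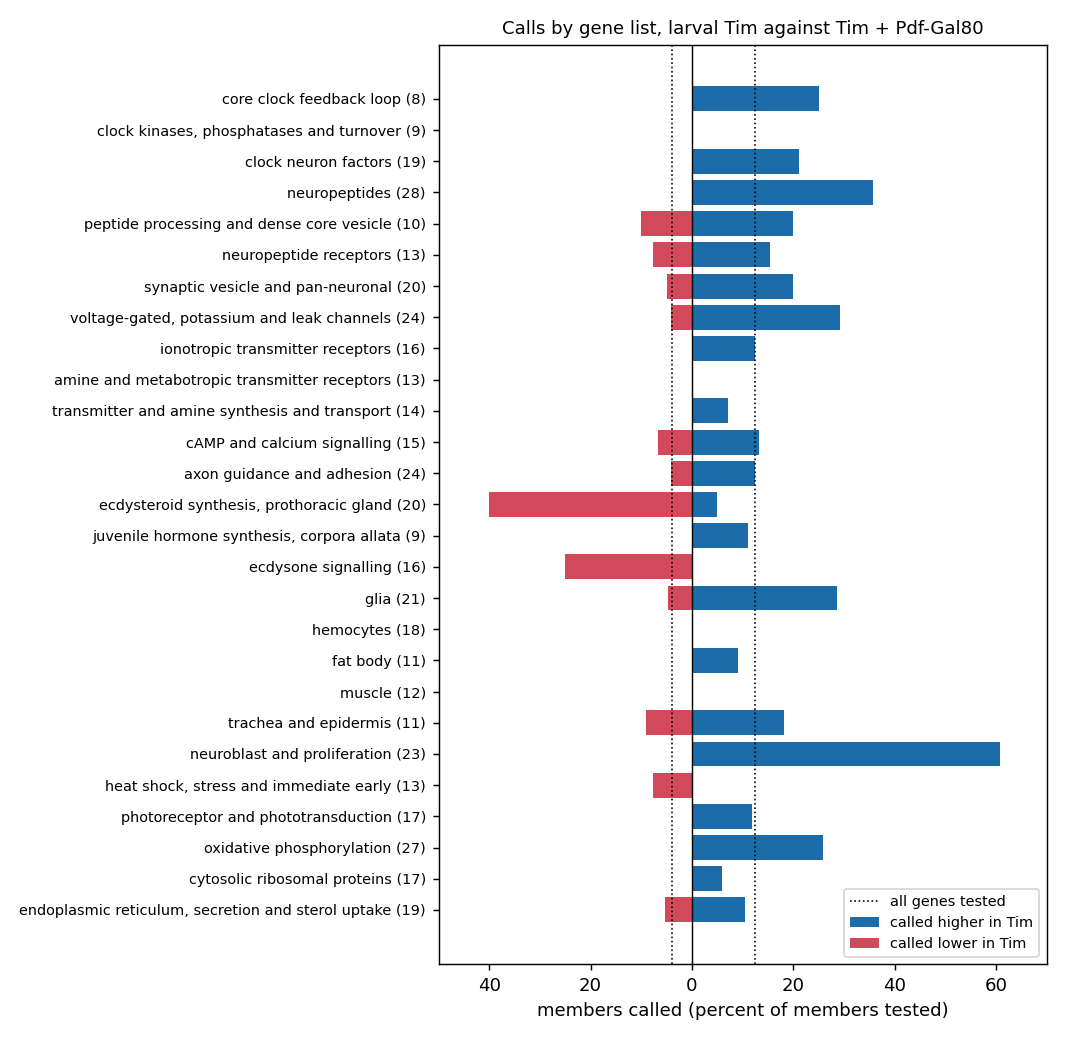
Percent of the tested members of each gene list called higher in Tim cells, to the right in blue, and lower, to the left in red, with the number tested in brackets and lists of under 8 left out. Dotted lines mark the shares over all genes tested, 12.4% higher and 3.87% lower. The proliferation list reaches 60.9% higher and the ecdysteroid synthesis list 40% lower.

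Genes of the ring gland were detected in both groups although the labels give brain as the source. jhamt, which makes juvenile hormone in the corpora allata, read 14.56, 12.65 and 9.77 in Tim and 13.71, 14.18 and 14.22 in Gal80 cells. phtm, the ecdysteroid enzyme phantom of the prothoracic gland, read 12.89, 13.08 and 8.34 against 11.83, 12.69 and 11.83. Both lay under 3 on all larval Pdf and Elav arrays. Tim replicate 3 was low in both genes, and neither was called (adjusted p = 0.104 and 0.619). jhamt was called lower without Tim replicate 1 (log2 difference -2.83, adjusted p = 0.00196) and stood at -0.43 without Tim replicate 3 (adjusted p = 0.597), the ends of its range over all settings. It was also called lower after centring and with array weights. Of the 9 juvenile hormone genes 1 was called higher (11.1%, against 12.4% of all genes) and 0 lower. The list's median level was 13.70, 11.26 and 9.57 on the Tim arrays and 11.77, 11.30 and 10.80 on the Gal80 arrays.

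Ecdysteroid synthesis genes were called lower in Tim cells in 8 cases. Of 20 tested, 8 were called lower in Tim cells (40%, against 3.87% of all genes) and 1 higher, with a median difference of -1.76 against 0.33 over all genes. In all 8 lower genes Tim replicate 3 was the lowest array, and the list's median level was 9.77, 9.38 and 6.97 on the Tim arrays and 10.86, 10.46 and 10.54 on the Gal80 arrays. Without Tim replicate 3 the counts were 5 lower and 0 higher, and the median was -0.46. Without Gal80 replicate 1, or replicate 3, 5 were also called lower, and the fit of the 2 groups alone called 0 in either direction by limma. After centring 11 were called lower and 0 higher. nvd, the Rieske oxygenase of the first step from cholesterol, read 8.42, 7.71 and 2.40 in Tim and 11.93, 10.58 and 10.86 in Gal80 cells, at least 16.9-fold lower in Tim cells (adjusted p = 0.00167). Without Tim replicate 3 the log2 difference of nvd was -3.06 in place of -4.95, still called.

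Later steps of the pathway gave smaller or uncalled differences. sro, the dehydrogenase shroud, read 9.04, 9.76 and 2.94 against 11.22, 11.22 and 10.70 (adjusted p = 0.017). dib, the hydroxylase disembodied, read 7.53, 6.06 and 2.58 against 8.51, 8.72 and 8.44 (adjusted p = 0.00872), with every Tim array below every Gal80 array. Without Tim replicate 3 the log2 difference of sro went from -3.80 to -1.65 and that of dib from -3.16 to -1.76, both still called. spok, the cytochrome P450 spookier, read 11.49, 12.08 and 6.10 against 13.06, 12.88 and 12.52 (adjusted p = 0.0352). The call of spok was lost without Tim replicate 3, at a log2 difference of -1.03 (adjusted p = 0.0596), and without any 1 of the Gal80 arrays (adjusted p of 0.0871, 0.0752 and 0.075), in a range of 0.00916 to 0.28 over all settings. sad, the hydroxylase shadow, read 12.60, 13.22 and 8.85 against 13.15, 13.43 and 13.35 and was not called (adjusted p = 0.106), but it was called lower after centring and without Tim replicate 2, in a range of 0.03 to 0.62.

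Regulators of the gland were among the lower genes. The zinc finger factors ouib and mld, which act on ecdysteroid enzyme genes, were 6.35-fold and 5.38-fold lower in Tim cells (adjusted p = 0.00444 and 0.00518). Without Tim replicate 3 their log2 differences were -1.59 and -1.65 in place of -2.67 and -2.43, both still called. tor, the receptor for the brain hormone that drives ecdysone release, read 8.54, 5.85 and 4.11 against 9.39, 8.23 and 9.46, and the groups overlapped (adjusted p = 0.0161). Start1, a sterol transport protein, was 4.4-fold lower (adjusted p = 0.0318). The exception in the list was ecd, a splicing and cell survival factor needed for ecdysone production, 3.42-fold higher in Tim cells (adjusted p = 0.0212). Over the 6 fits without 1 array the calls of tor, Start1 and ecd were each lost without Tim replicate 3 and without Gal80 replicate 1, those of tor and ecd also without Tim replicate 2, those of tor and Start1 without Gal80 replicate 3, and that of Start1 without Gal80 replicate 2. The adjusted p then ranged up to 0.105 for tor, 0.176 for Start1 and 0.0987 for ecd, and without Tim replicate 3 the log2 difference of Start1 was -1.0.

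Several ecdysone response genes were also called. Of 16 tested, 4 were lower in Tim cells (25%, against 3.87% of all genes) and 0 higher, with a median of -0.79, and 3 or 4 were called lower in each fit without 1 array. EcR, the ecdysone receptor, read 7.54, 6.08 and 5.89 in Tim and 8.80, 9.60 and 9.43 in Gal80 cells, 6.82-fold lower with no overlap (adjusted p = 0.000995). Eip63E, an ecdysone-induced cyclin-dependent kinase, read 9.79, 10.21 and 8.33 against 13.10, 13.37 and 12.91, 12.9-fold lower (adjusted p = 0.000995). E23, an ecdysone-induced transporter, read 3.88, 3.56 and 3.40 against 7.22, 7.46 and 10.19. All Tim arrays were under the limit and all Gal80 arrays over it, at least 9.79-fold apart (adjusted p = 0.00136). ImpE3, another gene induced by ecdysone, read 5.80, 4.78 and 4.58 against 8.18, 9.88 and 12.51 (at least 30.3-fold lower, adjusted p = 0.00101). EcR averaged 6.94 in larval Pdf and 7.02 in larval Elav cells, between the other two groups.

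**Figure D5:**
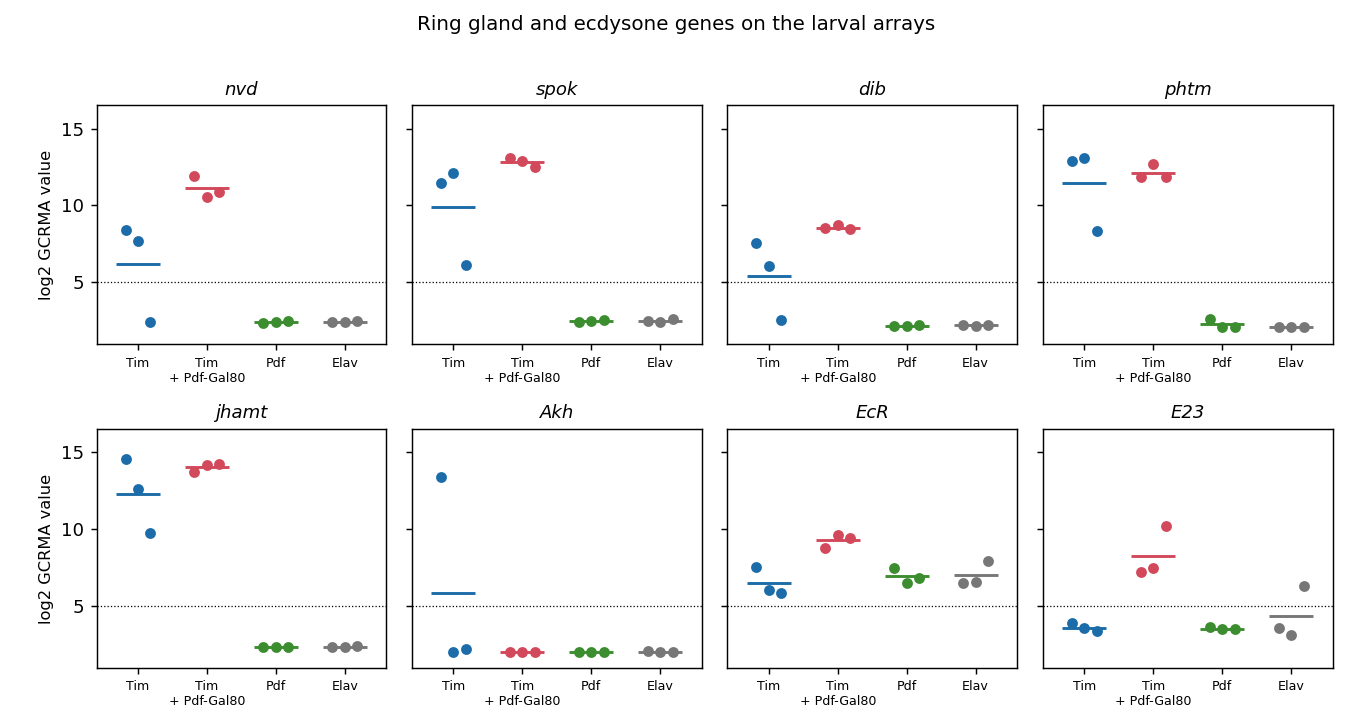
Log2 GCRMA values of ring gland and ecdysone genes on the 12 larval arrays, with points for arrays, bars for group means and a dotted line at 5. nvd, spok, dib, phtm and jhamt lie under the line in Pdf and Elav cells, and their lowest Tim point is replicate 3. Akh is detected on Tim replicate 1 alone.

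Markers of other tissues were uneven between single arrays. Akh, the hormone of the corpora cardiaca, read 13.42 on Tim replicate 1 and 2.00 to 2.21 on the other 5 arrays, and Lst, limostatin, a hormone of the same gland, read 8.74 on that array and under 3 on the other 5. The muscle genes sls and Mlc2 read 11.12 and 11.48 on Tim replicate 1. They read 5.02 and 6.27 on Tim replicate 2, 4.21 and 3.94 on Tim replicate 3, and 7.49 to 10.87 over both genes on the Gal80 arrays, and neither was called. Of 12 muscle genes limma called 0 (1 at an unadjusted p under 0.05), and of 18 hemocyte genes 0 (3 at an unadjusted p under 0.05), where the defining gene Hml lay between 2.25 and 2.45 on all 6 arrays. Without Tim replicate 1, 2 muscle genes were called lower and 1 hemocyte gene each way. Lsp2, a larval serum protein of the fat body, lay between 2.11 and 2.36. For the counts that follow, the shares over all genes were 12.4% higher and 3.87% lower. Of 11 fat body genes 1 was called higher and of 11 tracheal and epidermal genes 2 higher and 1 lower. Of 13 heat shock, stress and immediate early genes 0 were called higher and 1 lower, of 17 photoreceptor genes 2 and 0, of 19 genes of the secretory pathway and sterol uptake 2 and 1, and of 3 corpora cardiaca genes 0 and 0 (0 at an unadjusted p under 0.05). The part of these tissues in the differences was not tested.

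Outside the lists, the largest rises in Tim cells were ranked by group means with values under 5 raised to 5. Pen, an importin of the nuclear pore pathway, read 9.19, 12.42 and 13.17 in Tim and 5.67, 5.54 and 5.65 in Gal80 cells, 62.8-fold higher (adjusted p = 0.000471). feo, a protein of the spindle midzone, was at least 28-fold higher (adjusted p = 0.000398), and E(spl)mbeta-HLH, a target of Notch signalling, 37.3-fold (adjusted p = 0.00359). Ama, a secreted immunoglobulin protein, read 12.36, 10.89 and 12.27 against 2.65, 7.63 and 5.16, at least 60.2-fold (adjusted p = 0.00114). The odorant-binding protein gene Obp99a averaged 12.63 ± 0.49 and 7.14 ± 3.69 (SD, n = 3 each; limma adjusted p = 0.00347), and its log2 difference of 5.49 was 3.53 without Gal80 replicate 3. CG15082 and CG14075, which carry no given name, were at least 58.5-fold and 34.8-fold higher and lay under 5 on all larval Pdf arrays. CG14075 was unequal within Tim cells, at 12.46, 11.74 and 6.17.

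Among the largest falls by the same ranking, most genes lay under the limit on 1 or more Tim arrays. CG15201, which carries no given name, read 10.73, 4.85 and 4.74 in Tim and 13.55, 13.53 and 12.54 in Gal80 cells, so Tim replicate 1 was high. It was at least 78.5-fold lower in Tim cells (log2 difference -6.43, adjusted p = 0.00198), and the log2 difference was -8.41 without Tim replicate 1. Cyp4g1, the cytochrome P450 of hydrocarbon synthesis in oenocytes, read 3.16, 2.81 and 3.34 in Tim and 13.85, 5.82 and 10.54 in Gal80 cells. Its call (at least 33.5-fold lower, adjusted p = 0.0161) was lost without Tim replicate 2, Gal80 replicate 1 or Gal80 replicate 3, where the adjusted p was 0.0535, 0.0884 and 0.0577, within 0.000471 to 0.115 over all settings. Pvf2, a ligand of the PDGF and VEGF receptor, read 4.97, 4.09 and 5.82 against 9.10, 11.34 and 10.18 (at least 30.5-fold lower, adjusted p = 1.21e-05). LanA, laminin A of the basement membrane, was detected on every Tim array, at 5.81, 7.42 and 8.11, and was 26.1-fold lower (adjusted p = 0.00386). osy, an ABC transporter, and Sk1, a sphingosine kinase, were at least 25.2-fold and 19-fold lower (adjusted p = 0.00187 and 8.41e-05). Idh3g, a subunit of mitochondrial isocitrate dehydrogenase, read 5.20, 5.62 and 5.72 against 10.52, 10.24 and 9.62, 24.4-fold lower (adjusted p = 1.11e-05). It averaged 11.07 in larval Pdf and 11.43 in larval Elav cells, far above the Tim group.

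The differences were then set beside larval Pdf against larval Elav cells, a comparison that shares no array with this one. There 1996 genes were called (26.0%), 1017 higher in Pdf cells (13.3%) and 979 lower (12.8%). The synaptic vesicle and pan-neuronal list had a median level of 4.95 in larval Elav cells, against 10.74 in larval Pdf cells. For the neuroblast and proliferation list the medians were 11.40 and 8.60. The larval Elav arrays therefore cannot be read as neurons in general. Of the 948 genes called higher in Tim cells, 212 (22.4%) were also called higher in Pdf cells, which is 20.8% of the 1017. A further 184 of the 948 (19.4%) were called lower in Pdf cells, 18.8% of the 979. Of the 297 genes called lower in Tim cells, 42 (14.1%) were higher and 17 (5.72%) lower in Pdf cells, which is 4.13% of the 1017 and 1.74% of the 979. The shared higher count was 115 without Tim replicate 2, 134 without Tim replicate 3 and 101 without Gal80 replicate 3, and 36 with each comparison fitted on its 2 groups alone. Ranked by the Tim difference with values under 5 raised to 5, the first 10 genes higher in both were Pdf, 7B2, CG9686, Npc2a, Obp44a, Picot, Sidpn, cry, fne and repo. Sidpn, a helix-loop-helix factor of the deadpan family, read 9.38, 10.56 and 10.04 in Tim and 4.56, 6.33 and 2.65 in Gal80 cells (at least 23.4-fold, adjusted p = 9.08e-05). fne, a neuronal RNA-binding protein of the ELAV family, read 10.61, 12.69 and 11.52 against 5.46, 9.40 and 3.10 (at least 31.7-fold, adjusted p = 0.00112), a log2 difference of 5.62 that was 4.18 without Gal80 replicate 3. Npc2a, a sterol-binding protein, was 17.5-fold higher with no overlap between arrays (adjusted p = 0.000223). The call of Obp44a, at 14.34 to 15.26 in Tim and 5.71 to 13.86 in Gal80 cells (adjusted p = 0.0271), was lost without any 1 of the arrays except Gal80 replicate 2. Its adjusted p was 0.171 without Gal80 replicate 3 and ran from 0.00175 to 0.187 over all settings.

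The genes called in each direction were also counted by their detection in larval Pdf cells. On the larval Pdf arrays the hemocyte list had a median level of 7.34, against 3.82 on the larval Elav arrays. For the 3 corpora cardiaca genes the medians were 6.03 and 2.20. Detection on the Pdf arrays is thus a property of the collected sample and cannot be assigned to PDF neurons alone. Of the 948 genes called higher in Tim cells, 771 (81.3%) lay above 5 on all 3 larval Pdf arrays and 62 (6.54%) under 5 on all 3. Of the 297 called lower, the counts were 139 (46.8%) and 102 (34.3%). Over all 7670 genes the shares were 65.3% and 16.8%. These 7670 were kept on any of the 23 arrays, and 6274 genes lay above 5 on at least 2 of the 6 Tim and Gal80 arrays. The classes were not matched by level, so how far these gaps follow from brightness was not tested. In larval Elav cells 127 of the lower genes (42.8%) lay under 5 on all 3 arrays, against 23.5% of all genes and 19.4% of the higher genes. A further 131 of the lower genes (44.1%) lay above 5 on all 3 larval Elav arrays, against 63.5% of all genes. In 168 genes called higher, all Tim arrays exceeded 5 and all Gal80 arrays lay below it, and 108 of these were above 5 on all larval Pdf arrays and 8 under 5 on all of them. The reverse pattern held for 38 genes called lower, of which 10 lay under 5 on all larval Pdf and Elav arrays.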

How the data were processed

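The deposited series table holds log2 expression values that the authors made with GCRMA, per the submitters' processing notes. The sources used here do not give its version, its settings, the genome build or whether all arrays shared 1 run. Of 18952 probe sets, 13647 had 1 gene in the platform annotation, and symbols were updated through gene identifiers with RefSeq's table. Each of 11982 genes was represented by its probe set with the highest mean, and the 7670 genes with 2 or more of the 23 values over 5 were tested. Arrays were grouped by title. Differences were tested two-sided with limma 3.58.1 in R 4.3.3, in 1 model of 8 group means over 23 arrays (15 residual degrees of freedom) with eBayes and Benjamini-Hochberg adjustment. On simulated data for the Tim and Gal80 contrast over 7670 genes, 92% of 4-unit log2 changes, 34% of 2-unit and 6% of 1-unit changes were recovered. The simulation changed 50 genes at each size of change, and 6 unchanged genes were called falsely. That is a smaller changed share than the 16.2% called in the data, so recovery there may differ. The simulated noise was drawn separately for each gene and array, so shifts that many genes share on 1 array are not covered.

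The named genes, 107 in all, were the 15 largest rises and 15 largest falls among the calls with separate groups (ranked with values under 5 raised to 5), up to 4 called members of each list, the 10 largest shared with Pdf against Elav cells, and a set of defining genes. Other list members are named to describe their list and were chosen after their values were seen. Members and lists were chosen with earlier results of these data known. Alternatives were other scalings, filters, probe set rules, models and leaving out 1 array.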

Additional observations from a re-analysis of the deposited data

How the results depend on the processing

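The number of called genes, 1245, stayed within 1.5 times under other filters, scalings, probe set rules, a mean-variance trend and no minimum fold. It was 2403 with array weights and 569 in a fit of only the 2 groups, and leaving out 1 array gave 662 to 1246. Pdf against Elav, 1996 calls, gave 1173 in a fit of only the 2 groups and 1294 to 1964 without 1 array. The 212 shared higher calls became 399 with array weights, 36 with only the 2 groups, and 101 to 292 without 1 array.

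The titles number the replicates but do not say that equal numbers pair the arrays. Deviations of same-numbered Tim and Gal80 arrays correlated at 0.042, 0.22 and 0.048, and those of different-numbered ones at -0.169 to 0.073. For Pdf and Elav arrays the same-numbered values were -0.315, -0.317 and -0.05, and the others -0.254 to 0.423. Weak pairing of Tim and Gal80 arrays cannot be judged from so few values. With the replicate block, in a fit of only the 2 groups, 1 gene was called between Tim and Gal80 cells, Pdf, 140 between Pdf and Elav cells, and 1 in both.

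Of 93 called named genes, 63 kept their call in all 6 fits without 1 array, and no named gene changed direction while called. A fit of only the 2 groups ended 53 of the 93 calls and the replicate block 92. Centring, quantile normalization and no filter each ended 11, and raising values under 5 to 5 ended 7. Genes near the limit of detection have folds that depend on the background model.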

Other observations

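Genes switched from undetected to detected between the groups, picked after their values were seen, included several outside the lists. CG15537 read 5.32, 10.57 and 8.74 on the Tim arrays and 4.02, 2.26 and 2.25 on the Gal80 arrays, and it lay under 5 on all larval Pdf arrays. Faa, which encodes a fumarylacetoacetase of tyrosine breakdown, read 9.73, 6.21 and 6.18 against 3.21, 2.66 and 2.52, with Tim replicate 1 far above the other two. fkh, the forkhead transcription factor, read 5.75, 5.46 and 6.37 against 4.26, 4.14 and 3.96, a small step that crossed the limit of detection.

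In the other direction the genes detected on the Gal80 arrays and not on the Tim arrays included cuticle and signalling genes. The cuticle protein gene Cpr51A read 7.12, 8.99 and 9.81 on the Gal80 arrays and 2.72, 4.42 and 3.94 on the Tim arrays. Pgant4, an enzyme that starts O-linked glycosylation, read 6.43, 8.25 and 10.70 against 3.42, 2.68 and 2.58. Tie, a receptor tyrosine kinase, read 8.13, 8.01 and 7.24 against 4.06, 2.80 and 2.55. dpp, a signal of the BMP family, read 5.10, 8.05 and 6.79 against 3.45, 3.88 and 4.63, so Gal80 replicate 1 was barely above the limit. On the larval Pdf arrays dpp read 6.88, 5.44 and 6.85, and Cpr51A read 5.39, 3.2 and 2.42. Pgant4 and Tie lay under 5 on all larval Pdf arrays.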
